A study of Rattus norvegicus with 10 samples.

Results

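The genes described here were 7 genes of cholesterol synthesis, taken by name from the pathway: the enzyme genes Hmgcs1, Idi1, Fdft1, Sqle, Cyp51 and Dhcr7, and Srebf2, which encodes the transcription factor that drives them. They were 7 of the 14166 genes in the bulk gene table and 7 of the 25399 genes in the nucleus matrices, and all 7 were measured in every library. They were chosen with earlier results of these data known. No gene of cholesterol uptake is among the 7, so uptake genes are described from a separate pathway list. The dentate gyrus, a hippocampal region built around granule neurons, was dissected from the injured side of the brain of male Sprague-Dawley rats. TBI was made by lateral fluid percussion, a pressure pulse delivered through a craniectomy onto the intact dura, and tissue was collected 3 weeks later. Bulk RNA-seq held 3 TBI rats and 3 sham rats, which had the craniectomy and anesthesia without the pulse. Single-nucleus RNA-seq (snRNA-seq) held 2 TBI rats and 2 control rats, of which 1 was sham and 1 was naïve. The naïve rat had no surgery and the sham rat had all of it, so the control group joined 2 procedures, and no female rat or other strain was sampled.

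Cholesterol in the brain is made locally, because the blood-brain barrier keeps out the cholesterol of plasma lipoproteins. Cells build it from acetyl-CoA by way of mevalonate, isoprenoids, squalene and lanosterol, and astrocytes and myelinating oligodendrocytes are known for high synthesis in the adult brain. When membrane sterol is low, SREBP2, the protein of Srebf2, is cut free and enters the nucleus, where it switches on the synthesis genes and Srebf2 itself.

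Promoters are shown because all 7 members had a lower mean in injured bulk tissue and are known targets of the same factors. RefSeq promoter entries of the rat GRCr8 build, each 250 bases before to 50 bases after the start of the gene, were given for 5 of the 7 members, and Sqle and Fdft1 had none. SREBP proteins are known to act together with NF-Y, which binds CCAAT, and with Sp1, which binds the GC box GGGCGG. The letters CCAAT, on either strand, were in 3 of the 5 promoters and in 37.5% of 33469 rat promoters of the same length. The letters GGGCGG, on either strand, were in 4 of the 5 and in 33.1% of all. Of the sterol response elements, ATCACCCCA was in 1 of the 5, that of Srebf2, and in 0.245% of all promoters, and TCACNCCAC was in 0 of the 5 and in 1.12% of all. ATCACCCCA was looked for after the Srebf2 sequence had been seen. The stretches that hold CCAAT are printed 5′ to 3′ on the strand of the gene, with matches in capitals, where ATTGG is CCAAT read on the other strand. They lie at chr2:53382104-53382187 on the plus strand for Hmgcs1, at chr17:66547543-66547602 on the minus strand for Idi1, and at chr7:115543138-115543194 on the plus strand for Srebf2.
Hmgcs1: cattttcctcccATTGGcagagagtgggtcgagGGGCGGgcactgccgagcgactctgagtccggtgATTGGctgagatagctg
Idi1: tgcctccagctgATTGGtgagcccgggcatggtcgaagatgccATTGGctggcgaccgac
Srebf2: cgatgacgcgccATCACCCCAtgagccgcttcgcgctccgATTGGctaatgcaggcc
Hmgcs1 and Idi1 each held CCAAT at 2 places, 188 and 133 bases before the start for Hmgcs1 and 66 and 35 bases before it for Idi1. Srebf2 held CCAAT 129 bases and ATCACCCCA 157 bases before its start. These matches are descriptions of the letters, and no binding was measured.

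In bulk tissue all 7 members had a lower mean in TBI than in sham, and none passed the edgeR test across all genes. The levels fitted by edgeR were 17.9% lower in TBI for Dhcr7 to 34.2% lower for Fdft1. Levels are given as CPM, the counts scaled to a common library total, from the deposited log2 values, and changes as Log2FC of TBI against sham, where a negative value is lower in TBI. They come from the quasi-likelihood test of edgeR after TMM scaling, and FDR is the Benjamini-Hochberg adjusted p over all 14166 genes. In whole tissue, fewer cells of a type and less RNA per cell cannot be told apart.

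Of the mevalonate steps, Hmgcs1 (Entrez 29637) encodes the enzyme that condenses acetoacetyl-CoA with acetyl-CoA to HMG-CoA. It was at 276, 353 and 363 CPM in sham 1, 2 and 3 and at 253, 198 and 279.9 CPM in TBI 1, 2 and 3. TBI 2 was lowest, and TBI 3 was above sham 1, so the groups overlapped. The means were 331 ± 47.8 (SD, n = 3) and 244 ± 41.9 CPM (SD, n = 3), a Log2FC of -0.48 ± 0.17 (SE), with an edgeR p of 0.0213 before adjustment and an FDR of 0.378.

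Idi1 (Entrez 89784) encodes the isomerase that interconverts the 2 isoprenoid building blocks. It was at 30.0, 40.1 and 34.2 CPM in sham and at 22.5, 21.7 and 31.1 CPM in TBI. TBI 1 and TBI 2 lay below every sham library and TBI 3 lay just above sham 1. The means were 34.8 ± 5.08 and 25.1 ± 5.23 CPM (SD, n = 3 each), a Log2FC of -0.51 ± 0.17 (SE) with an edgeR p of 0.0208 and an FDR of 0.375.

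Of the squalene steps, Fdft1 (Entrez 29580) encodes squalene synthase, which joins farnesyl units in the step that commits carbon to sterols. It was at 90.9, 106 and 120.4 CPM in sham and at 80.2, 57.7 and 77.4 CPM in TBI, and every TBI library was below every sham library. The means were 106 ± 14.7 and 71.8 ± 12.3 CPM (SD, n = 3 each). Its Log2FC of -0.60 ± 0.16 (SE) was the largest of the 7, with an edgeR p of 0.00738 and an FDR of 0.277.

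Sqle (Entrez 29230) encodes squalene epoxidase, an oxygen-dependent and rate-limiting enzyme of the pathway. It was at 77.8, 91.7 and 91.6 CPM in sham and at 63.8, 61.3 and 63.8 CPM in TBI. The TBI libraries lay close together, below the lowest sham library. The means were 87.0 ± 8.01 and 63.0 ± 1.48 CPM (SD, n = 3 each), a Log2FC of -0.51 ± 0.11 (SE). Sqle had the smallest p of the 7, 0.00176 by edgeR, with an FDR of 0.196.

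Of the sterol steps, Cyp51 (Entrez 25427) encodes lanosterol demethylase, the cytochrome P450 that removes a methyl group from lanosterol. It was at 179, 205 and 191 CPM in sham and at 167, 119.6 and 177 CPM in TBI. TBI 2 lay far below the others, while TBI 3 came within a few CPM of sham 1 without crossing it. The means were 192 ± 12.9 and 155 ± 30.8 CPM (SD, n = 3 each), a Log2FC of -0.35 ± 0.15 (SE) with an edgeR p of 0.0558 and an FDR of 0.542. Without TBI 2 the Log2FC was -0.22.

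Dhcr7 (Entrez 64191) encodes the reductase that turns 7-dehydrocholesterol into cholesterol. It was at 34.1, 34.9 and 34.7 CPM in sham and at 29.0, 24.97 and 33.5 CPM in TBI. The sham libraries were nearly level, and all TBI libraries were lower, TBI 3 by little. The means were 34.6 ± 0.443 and 29.2 ± 4.28 CPM (SD, n = 3 each), a Log2FC of -0.28 ± 0.12 (SE) with an edgeR p of 0.0509 and an FDR of 0.524.

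The regulator Srebf2 (Entrez 300095) was at 206, 312 and 222 CPM in sham and at 197, 172 and 181 CPM in TBI. All TBI libraries were below all sham libraries, and sham 2 stood well above the rest. The means were 247 ± 56.9 and 184 ± 12.8 CPM (SD, n = 3 each), a Log2FC of -0.46 ± 0.17 (SE) with an edgeR p of 0.0272 and an FDR of 0.416. Without sham 2 the Log2FC was -0.26.

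**Figure D1:**
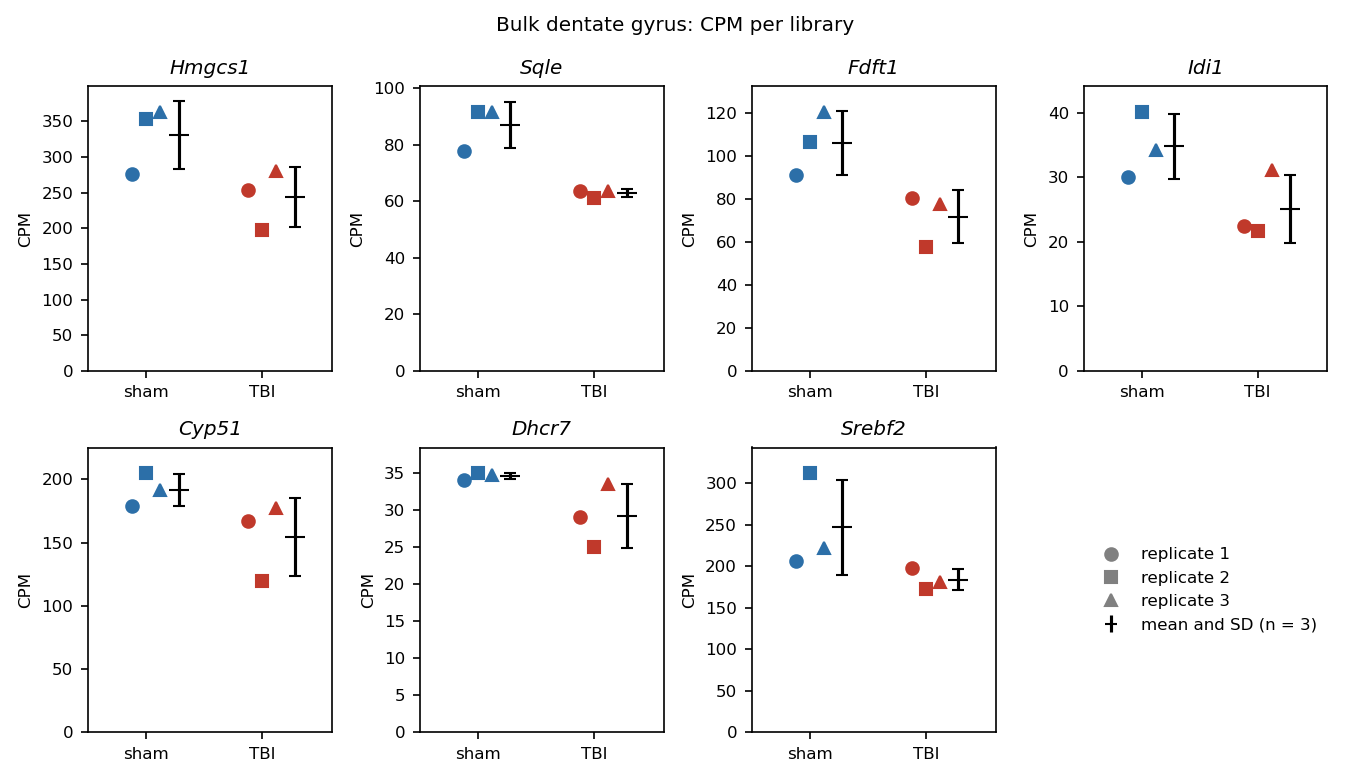
CPM of the 7 members in each bulk library, with a point per rat and a line with error bars for the group mean ± SD (n = 3 sham, n = 3 TBI). The TBI points lie below all sham points for Fdft1, Sqle, Cyp51, Dhcr7 and Srebf2, and TBI 3 reaches above sham 1 for Hmgcs1 and Idi1.

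Over the 7 members, 0 passed an FDR of 0.05 in edgeR, as did 0% of all 14166 genes. Before adjustment, 5 of the 7 had an edgeR p under 0.05, all lower in TBI, against 1.4% of all genes lower in TBI at that p, 8.2% higher and 9.6% in either direction. That count was 2 of 7 without TBI 2 and 3 of 7 without sham 2. In 5 of the 7, every TBI library was below every sham library, which held for 3.04% of all genes. The median Log2FC of the 7 was -0.48, against -0.00 over all genes, of which 6995 were higher and 7171 lower. With limma on the deposited log2 CPM, 0 of the 7 and 0% of all genes were called, and 3 of the 7 had a p under 0.05, as did 9.37% of all genes.

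DESeq2, the tool used in the study, called 2 of the 7 lower with its own adjustment over all genes, against 0.0777% of all genes. These were Sqle, with an adjusted p of 0.00421, and Fdft1, with an adjusted p of 0.0312. The adjusted DESeq2 p of the other 5 was between 0.123 for Hmgcs1 and 0.417 for Dhcr7. Before adjustment all 7 members had a DESeq2 p under 0.05, all lower in TBI, as did 2.66% of all genes. The study adjusted p-values only over genes that already had a p under 0.05. Run here at a threshold of 0.05, that procedure keeps every such gene. The resulting count of 7 restates the p before adjustment, is no further call and is not a count given by the study. The paper's results used a stricter q, which only Sqle and Fdft1 of the 7 met here. Under that adjustment the values ran from 0.000453 for Sqle and 0.00336 for Fdft1 to 0.0449 for Dhcr7. The study's further limit of an absolute Log2FC of at least 1.5 was met by 0 of the 7 under any of these tests.

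DESeq2 called 338 genes higher (2.39%) and 11 lower in TBI, together 2.46% of all genes. Of the 11, 6 were in the cholesterol pathway lists, which is 54.5% of the genes called lower and 11.5% of the 52 list genes measured. They included Sqle, Fdft1, Acat2 and Stard4. The other 5, named after their values were seen, were Tfrc, the transferrin receptor of iron uptake, Tanc1 and Akap5, which encode synaptic scaffold proteins, and 2 entries with no matching symbol. The 52 list genes were among 14166 genes in the table. The lists were chosen with earlier results of these data known, and Sqle and Fdft1 are members. The overlap of 6 of 11 is therefore no independent result.

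By the dates in the deposited metadata the procedures fell in different seasons, with sham 1, sham 2 and TBI 1 in spring and sham 3, TBI 2 and TBI 3 in autumn. Within the spring libraries all 7 members were lower in TBI, with log2 differences from -0.20 for Cyp51 to -0.63 for Idi1. Within the autumn libraries all 7 were lower too, from -0.26 for Dhcr7 to -0.85 for Fdft1. A period holds 1 rat of 1 of the groups, so these within-period differences carry no test. With the surgery period as a covariate in edgeR, the median Log2FC of the members was -0.50.

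The marker lists of several cell types differed with injury in level, and their part in the members' values was not tested. All 9 measured microglia markers had a Log2FC above 0, with a median of 1.07, or 0.61 without TBI 2, and summed levels of 216 to 226 CPM in sham and 363 to 649.9 CPM in TBI. All 9 measured astrocyte markers were above 0 too, with a median of 0.35 and summed levels of 4094 to 4952 CPM in sham and 6908 to 9953 CPM in TBI. As groups, the members were lower and the astrocyte marker sum was higher in TBI. Among sham libraries, sham 2 had the highest astrocyte marker sum and the highest summed CPM of the members. Among TBI libraries, TBI 2 had the highest astrocyte marker sum and the lowest summed CPM of the members. The mature oligodendrocyte list had a median of -0.72 over 10 markers, with 5571, 17760.0 and 6904 CPM summed in sham 1, 2 and 3 and 5253, 8294 and 5482 CPM in TBI. Without sham 2 that median was -0.01 and the median of the 7 members was -0.40, with 3 of them at an edgeR p under 0.05. Of the 10 glutamatergic neuron markers 8 were below 0, with a median of -0.24 and summed levels of 4497 to 5227 CPM in sham and 3747 to 4601 CPM in TBI. All 7 endothelial markers measured and all 8 pericyte markers were above 0, with medians of 0.46 and 0.59, which were 0.092 and 0.28 without TBI 3. DESeq2 called 6 microglia markers and 1 astrocyte marker higher and no other marker, against 2.39% of all genes called higher.

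Across the rest of the pathway, most genes of synthesis lay on the lower side. The list that holds the efflux genes spread to both sides, with more genes above 0 than below. The synthesis list held 20 genes, and 19 of them had a Log2FC below 0, with a median of -0.33. In 11 of the 20 the edgeR p before adjustment was under 0.05, all lower in TBI, against 1.4% of all genes. In 11 every TBI library was below every sham library, against 3.04% of all genes. The lists were chosen with earlier results of these data known. Leaving out the members, 13 of 14 synthesis genes were below 0, with a median of -0.28 and 7 at a p under 0.05. By stage, 7 of 8 mevalonate genes, 3 of 3 squalene genes and 9 of 9 sterol genes were below 0, with medians of -0.33, -0.51 and -0.28. No list gene was called by edgeR. DESeq2 called 1, 2 and 1 genes lower in these stages and 0 higher, against 0.0777% of all genes lower and 2.39% higher.

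The sterol sensing list of 7 genes, which includes Srebf2, had 5 below 0 and a median of -0.15. The list of uptake and lysosomal release had 6 above and 5 below 0 among 11 measured genes, with a median of 0.03 that turned negative when sham 1 or sham 3 was left out. The list of efflux, transport, esters and turnover had 10 of 14 above 0 and a median of 0.13, which was 0.35 without sham 2. In it 5 genes had an edgeR p under 0.05, all higher in TBI, against 8.2% of all genes. DESeq2 called 4 of its genes higher, against 2.39% of all genes.

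Among the pathway genes with the smallest edgeR p were Npc2, Stard4, Sqle, Ch25h and Acat2. None of these overlapped between sham and TBI. Their choice by p in the same contrast makes that likely, so it is no further result. Of all genes, 3.04% were lower and 11.7% were higher in every TBI library than in every sham library. Stard4 encodes a carrier of cholesterol between membranes and is a known SREBP2 target. It was at 12.2, 16.6 and 17.8 CPM in sham and at 8.96, 8.71 and 9.03 CPM in TBI, a Log2FC of -0.85 ± 0.17 (SE) with an edgeR FDR of 0.196. Acat2 encodes the thiolase at the head of the mevalonate pathway. It was at 42.8, 43.7 and 52.5 CPM in sham and at 34.2, 29.4 and 35.4 CPM in TBI, a Log2FC of -0.53 ± 0.13 (SE) with an edgeR FDR of 0.225.

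Npc2 and Ch25h lay on the opposite side. Npc2 encodes the lysosomal protein that hands on cholesterol released from lipoproteins. It was at 82.8, 84.2 and 84.5 CPM in sham and at 176, 361 and 172 CPM in TBI, a Log2FC of 1.46 ± 0.29 (SE) with an edgeR FDR of 0.196. Ch25h encodes cholesterol 25-hydroxylase, whose product 25-hydroxycholesterol is known to hold back SREBP processing. It was at 1.43, 2.33 and 2.08 CPM in sham and at 3.78, 10.3 and 9.85 CPM in TBI, a Log2FC of 2.00 ± 0.42 (SE) with an edgeR FDR of 0.196. DESeq2 called both higher, with adjusted p-values of 0.00015 for Npc2 and 0.00136 for Ch25h.

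The members shared their order of libraries with other sterol genes. The mean of their centred log2 CPM was 0.04, 0.34 and 0.25 in sham 1, 2 and 3 and -0.16, -0.42 and -0.05 in TBI 1, 2 and 3. The 5 genes most like that mean over the 6 libraries were Mfsd4b1, Dleu7, Sc5d, Msmo1 and Fam234b, with Pearson correlations of 0.985, 0.977, 0.957, 0.954 and 0.952. Sc5d and Msmo1 encode enzymes of late sterol synthesis. The 6 points share the group difference, and the genes were picked as the most alike of all genes, so these values carry no test.

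In snRNA-seq the members were followed in 9 cell classes. The 4 libraries held 55863 nuclei, of which 55124 passed the study's filters, with 26086141 to 35293678 UMIs per rat. Nuclei were clustered without the cholesterol list genes, and classes are called by markers, as in "astrocyte-like". Only 314 barcodes occurred in more than 1 library. Glutamatergic-like nuclei made up 29819 of the nuclei kept, with 5040 astrocyte-like, 3749 GABAergic-like, 3238 mature oligodendrocyte-like and 3148 microglia-like nuclei. There were 2778 oligodendrocyte precursor-like, 432 endothelial-like, 305 committed precursor-like and 144 pericyte-like nuclei. Clusters 8, 11 and 16 scored best for glutamatergic markers but stayed unnamed, so the glutamatergic-like class does not hold them.

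All classes carried neuronal RNA. Slc17a7, the vesicular glutamate transporter of excitatory neurons, was in the non-neuronal classes at 34.2% to 67.0% of its glutamatergic-like level, and in astrocyte-like nuclei at 55.1%. This RNA was not removed from the levels given, and its part in them was not tested. The deposited matrices also held entries stored as 0. They made up 1.89%, 29.4%, 11.8% and 18.2% of the members' entries in TBI 1, TBI 2, sham and naïve, and for Hmgcs1 2.39%, 48.8%, 20.5% and 32.5%.

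Levels per class are CPM of the summed UMIs, given as mean ± SD over the 4 rats (n = 4). The classes were made from these same nuclei, so their levels are a description with no test. Astrocyte-like nuclei had the highest mean for 6 of the 7 members, all but Dhcr7. Neighbouring classes in the order overlapped in range over rats for every member. The classes come from the same 4 rats, so this overlap does not show whether neighbours differed within each rat. In pericyte-like and committed precursor-like nuclei the members other than Srebf2 rested on 0 to 5 and 0 to 12 UMIs per rat. Their levels and places in the order are thus limited by counting error in these 2 classes.

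Hmgcs1 was at 120.5 ± 36.8 CPM in astrocyte-like, 77.3 ± 19.5 in pericyte-like, 63.3 ± 12.6 in endothelial-like and 37.9 ± 25.9 in committed precursor-like nuclei. It was at 35.2 ± 8.78 CPM in microglia-like, 33.6 ± 4.25 in mature oligodendrocyte-like, 32.7 ± 1.99 in GABAergic-like, 27.2 ± 7.02 in precursor-like and 14.7 ± 8.37 in glutamatergic-like nuclei. The astrocyte-like mean was 8.21 times the glutamatergic-like mean, and the ratio was 3.38, 20.1, 6.19 and 17.04 in TBI 1, TBI 2, sham and naïve. The ratio was above 1 in every rat and was largest in the rats with the largest share of stored zeros. On the log2 scale it was 3.04, and 2.28 when each stored 0 was read as 1 UMI.

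Cyp51 was at 128 ± 58.9 CPM in astrocyte-like, 90.2 ± 50.8 in endothelial-like, 77.8 ± 18.6 in pericyte-like and 62.2 ± 30.9 in mature oligodendrocyte-like nuclei. It was at 60.3 ± 41.6 CPM in committed precursor-like, 42.9 ± 4.38 in GABAergic-like, 32.6 ± 8.58 in precursor-like, 32.2 ± 7.996 in microglia-like and 23.8 ± 5.60 in glutamatergic-like nuclei. The astrocyte-like mean was 5.37 times the glutamatergic-like mean, with 3.37, 7.36, 3.54 and 7.92 in the single rats.

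Fdft1 was at 79.8 ± 16.1 CPM in astrocyte-like, 65.1 ± 8.99 in mature oligodendrocyte-like, 58.2 ± 16.4 in endothelial-like and 40.3 ± 5.49 in GABAergic-like nuclei. It was at 38.6 ± 23.9 CPM in pericyte-like, 36.9 ± 27.5 in committed precursor-like, 36.7 ± 6.84 in microglia-like, 31.2 ± 12.9 in precursor-like and 23.7 ± 7.03 in glutamatergic-like nuclei. When the glial clusters richest in neuronal RNA were left out, an alternative chosen after seeing the data, mature oligodendrocyte-like nuclei had the highest Fdft1 mean.

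Sqle was at 60.6 ± 17.8 CPM in astrocyte-like, 47.5 ± 12.4 in GABAergic-like, 46.0 ± 20.05 in mature oligodendrocyte-like and 44.6 ± 10.7 in endothelial-like nuclei. It was at 41.2 ± 9.39 CPM in precursor-like, 36.3 ± 6.64 in glutamatergic-like, 31.7 ± 5.51 in microglia-like, 27.0 ± 10.2 in committed precursor-like and 17.9 ± 12.3 in pericyte-like nuclei. Its astrocyte-like mean was 1.67 times the glutamatergic-like mean, a smaller ratio than for Hmgcs1, Cyp51 or Fdft1.

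Idi1 was at 22.0 ± 5.07 CPM in astrocyte-like, 16.3 ± 14.8 in endothelial-like, 13.9 ± 3.37 in mature oligodendrocyte-like and 12.1 ± 4.78 in GABAergic-like nuclei. It was at 11.7 ± 9.09 CPM in committed precursor-like, 9.14 ± 1.93 in precursor-like, 8.78 ± 3.31 in microglia-like and 5.92 ± 1.35 in glutamatergic-like nuclei. In pericyte-like nuclei Idi1 rested on 1 UMI in 1 rat, so its level there has no meaning. The astrocyte-like mean was 3.71 times the glutamatergic-like mean, and the ratio lay between 3.54 and 4.02 in the 4 rats.

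Dhcr7 was at 25.8 ± 4.85 CPM in GABAergic-like, 25.8 ± 4.62 in astrocyte-like, 24.3 ± 14.2 in committed precursor-like and 19.6 ± 5.32 in mature oligodendrocyte-like nuclei. It was at 18.2 ± 11.3 CPM in endothelial-like, 17.5 ± 1.22 in glutamatergic-like, 15.3 ± 10.6 in pericyte-like, 13.5 ± 5.18 in microglia-like and 13.5 ± 4.60 in precursor-like nuclei. Srebf2 was at 271 ± 35.1 CPM in astrocyte-like, 221 ± 24.3 in mature oligodendrocyte-like, 215 ± 36.2 in microglia-like and 212 ± 66.5 in endothelial-like nuclei. It was at 194 ± 54.4 CPM in pericyte-like, 192 ± 31.8 in glutamatergic-like, 163 ± 30.5 in GABAergic-like, 154 ± 67.0 in committed precursor-like and 144 ± 30.5 in precursor-like nuclei. The astrocyte-like means of Dhcr7 and Srebf2 were 1.47 and 1.41 times the glutamatergic-like means, and from their highest to their lowest class these 2 genes varied by 1.91 and 1.88 times, the least of the 7.

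**Figure D2:**
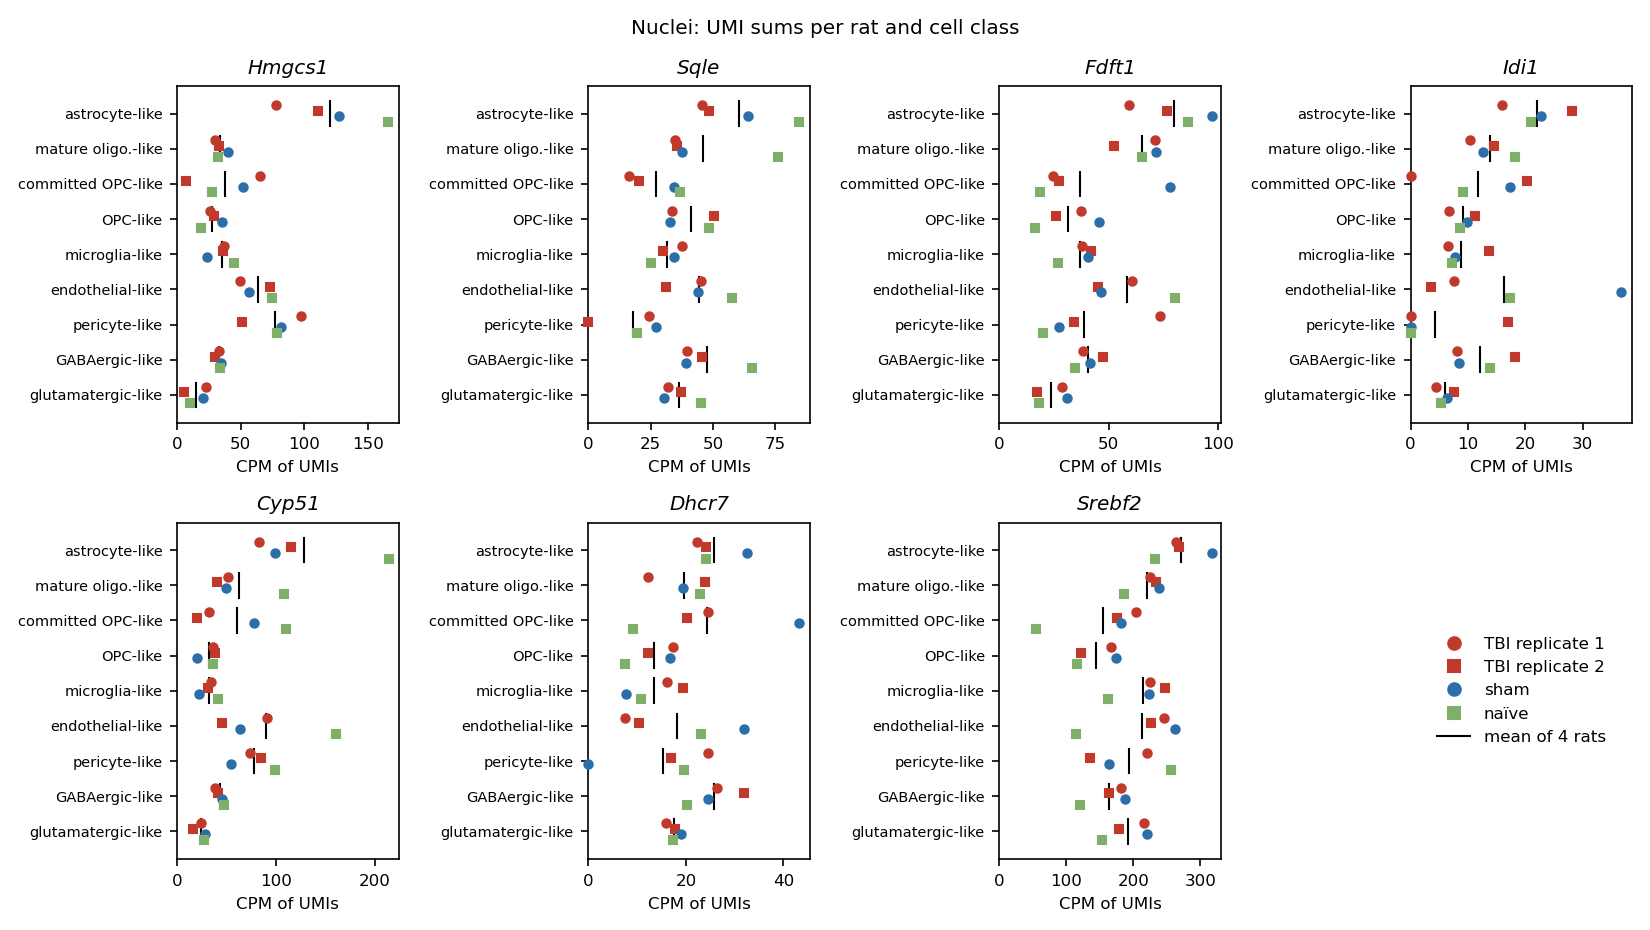
CPM of summed UMIs for the 7 members in 9 cell classes, with a point per rat (2 TBI, 1 sham, 1 naïve) and a line at the mean. Hmgcs1 and Cyp51 have their highest points in astrocyte-like nuclei and Srebf2 is spread over all classes.

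The genes whose mean log2(CPM + 1) over the 9 classes was most like the members' were Ccdc9b, Fam163a, AABR07029351.1, Sult1d1 and Arpin, with Pearson correlations from 0.939 to 0.953. All 9 points share the libraries and the neuronal RNA, and Fam163a was also among the leading genes of an astrocyte-like cluster.

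In astrocyte-like nuclei all 7 members had a Log2FC of TBI against control below 0, and 0 of the 7 passed an FDR of 0.05 in edgeR on UMI sums per rat, as did 0% of 12534 genes tested there. The median of the 7 was -0.50, against -0.02 over all genes tested. Before adjustment, Hmgcs1, Sqle and Fdft1 had a p under 0.05, as did 12.7% of all genes. For these same 3 genes both TBI rats were below both control rats, which held for 18% of all genes.

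Astrocyte-like Hmgcs1 was at 77.5 and 111 CPM in TBI 1 and TBI 2, 127 CPM in sham and 166 CPM in naïve. Both TBI rats were lower, and the naïve rat was highest. The Log2FC was -0.71 ± 0.22 (SE), with an edgeR p of 0.0146 and an FDR of 0.261.

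Astrocyte-like Sqle was at 45.7 and 48.4 CPM in TBI, 63.8 CPM in sham and 84.6 CPM in naïve, again with both TBI rats below both controls. The Log2FC was -0.72 ± 0.20 (SE), with an edgeR p of 0.00838 and an FDR of 0.222. Fdft1 was at 59.2 and 76.6 CPM in TBI, 97.2 CPM in sham and 86.3 CPM in naïve, so that here the sham rat was highest. The Log2FC was -0.50 ± 0.19 (SE), with an edgeR p of 0.0303 and an FDR of 0.337, and it was -0.33 without TBI 1.

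Astrocyte-like Cyp51 was at 82.6 and 115 CPM in TBI, 99.0 CPM in sham and 214 CPM in naïve. The sham rat lay between the TBI rats and only the naïve rat was above them, a Log2FC of -0.73 ± 0.35 (SE) with an edgeR FDR of 0.449. Without the naïve rat the Log2FC was -0.07, and without the sham rat it was -1.18.

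The other members overlapped between TBI and control in astrocyte-like nuclei. Idi1 was at 15.9 and 28.2 CPM in TBI, 22.7 CPM in sham and 21.0 CPM in naïve. Dhcr7 was at 22.2 and 24.2 CPM in TBI, 32.6 CPM in sham and 24.0 CPM in naïve. Srebf2 was at 264 and 269 CPM in TBI, 318 CPM in sham and 233 CPM in naïve. Their Log2FC values were -0.06, -0.34 and -0.11, with edgeR FDR values of 0.961, 0.648 and 0.852, and those of Idi1 and Srebf2 changed sign when 1 rat was left out. The value of Dhcr7 ran from -0.55 without the naïve rat to -0.12 without the sham rat.

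DESeq2 called 0 of the 7 in astrocyte-like nuclei, against 1.46% of all genes. With no filter on low counts, edgeR called 3 of the 7, against 3.55% of 18792 genes. These were Hmgcs1 (FDR 0.00854), Sqle (FDR 0.0324) and Cyp51 (FDR 0.00448). Reading each stored 0 as 1 UMI left the Log2FC at -0.70 for Hmgcs1, -0.62 for Sqle and -0.49 for Fdft1, with no member called.

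The astrocyte-like nuclei fell into 2 clusters. Cluster 10, led by Gfap, an intermediate filament gene of astrocytes, and by the lipoprotein gene Apoe, held 30.6%, 42.3%, 19.7% and 37.7% of astrocyte-like nuclei in TBI 1, TBI 2, sham and naïve. Cluster 4 held the others. Hmgcs1 was at 109.6, 144, 188 and 214 CPM in cluster 10 and at 47.3, 69.5, 98.1 and 74.6 CPM in cluster 4 of the same rats. In each rat it was higher in cluster 10, and in each cluster both TBI rats were lower than both controls. Both TBI rats were already lower in the class that joins these clusters, which makes that separation likely, so it is no further result. The share of all genes so separated was 18% in the class and was not computed for each cluster.

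Sqle was at 58.1, 57.9, 75.2 and 92.6 CPM in cluster 10 and at 34.1, 36.3, 58.4 and 69.1 CPM in cluster 4, in the order TBI 1, TBI 2, sham and naïve. It too was higher in cluster 10 in each rat and lower in both TBI rats in each cluster. As for Hmgcs1, that separation was already present in the joined class and is no further result. Fdft1 was at 61.6, 75.1, 101 and 92.1 CPM in cluster 10 and at 56.8, 78.6, 95.5 and 75.1 CPM in cluster 4, so in cluster 4 TBI 2 was above the naïve rat. Cyp51 was at 101, 145, 135 and 257 CPM in cluster 10 and at 65.8, 77.1, 81.7 and 131 CPM in cluster 4. The share of nuclei in cluster 10 and the depth of the 4 libraries differed, and their part in the class values was not tested.

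**Figure D3:**
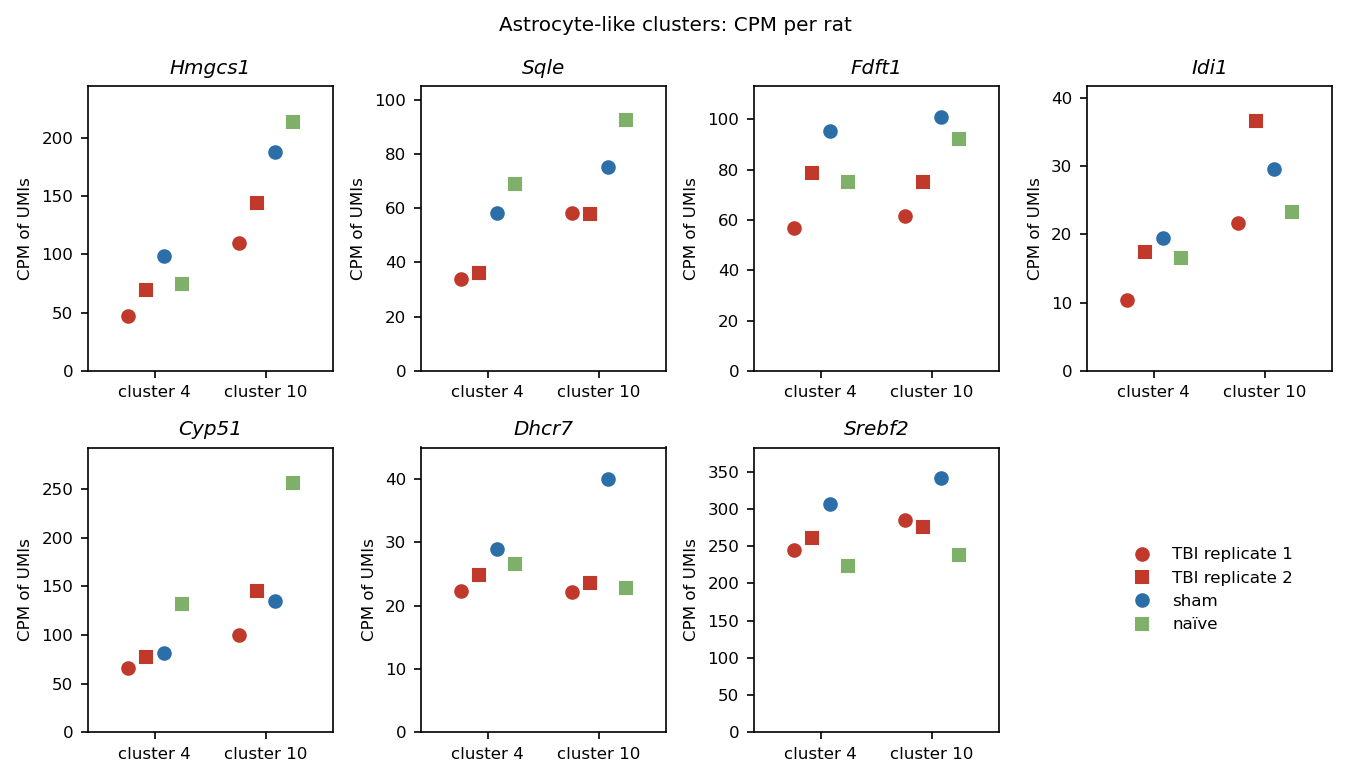
CPM of members in the 2 astrocyte-like clusters, with a point per rat (2 TBI, 1 sham, 1 naïve). For Hmgcs1 and Sqle the TBI points are below the control points in both clusters, and cluster 10 is above cluster 4 in every rat.

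Over all nuclei, 5 of the 7 members had a Log2FC below 0, with a median of -0.15, and 0 of the 7 had an edgeR p under 0.05, against 3.44% of 15959 genes tested. Hmgcs1 was at 34.3 and 29.8 CPM in TBI, 37.3 CPM in sham and 39.1 CPM in naïve, a Log2FC of -0.33 ± 0.17 (SE). Cyp51 was at 37.2 and 37.1 CPM in TBI, 39.4 CPM in sham and 62.2 CPM in naïve, a Log2FC of -0.53 ± 0.24 (SE). These 2 members alone had both TBI rats below both controls, against 9.85% of all genes, and their edgeR p-values before adjustment were 0.105 and 0.0657. With single rats left out, the Log2FC of Cyp51 ran from -0.82 without the sham rat to -0.15 without the naïve rat.

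Sqle was at 36.1 and 40.1 CPM in TBI, 36.0 CPM in sham and 54.9 CPM in naïve over all nuclei, with the sham rat lowest. Fdft1 was at 37.1 and 34.4 CPM in TBI, 43.4 CPM in sham and 32.3 CPM in naïve, with the naïve rat lowest. Srebf2 was at 223 and 204 CPM in TBI, 232 CPM in sham and 165 CPM in naïve. The sham and the naïve rat thus lay on either side of the TBI rats for these 3 genes. Idi1 was at 7.51 and 12.5 CPM in TBI, 9.41 CPM in sham and 9.31 CPM in naïve, and Dhcr7 at 18.4 and 21.2 CPM in TBI, 21.6 CPM in sham and 18.4 CPM in naïve.

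In the other classes, and over all nuclei, no member was called by edgeR or DESeq2. edgeR called 0% of all genes in each class, and DESeq2 called 0.0237% over all nuclei, 0.00595% in mature oligodendrocyte-like nuclei, 0.0447% in glutamatergic-like nuclei and 0% in the rest. No member in these classes had an edgeR p under 0.05. Of all genes tested, that p was reached by 2.29% in microglia-like, 2.05% in mature oligodendrocyte-like, 6.86% in committed precursor-like and 2.83% in precursor-like nuclei. It was reached by 4.03% in endothelial-like, 6.7% in pericyte-like, 1.18% in glutamatergic-like and 1.36% in GABAergic-like nuclei. Of the members that passed the low-count filter, 7 of 7 were below 0 in mature oligodendrocyte-like nuclei and 6 of 6 were above 0 in microglia-like nuclei, with medians of -0.31 and 0.16. In microglia-like nuclei Dhcr7 was at 16.1 and 19.3 CPM in TBI, 7.82 CPM in sham and 10.7 CPM in naïve, and those levels rested on 5 to 24 UMIs per rat. In mature oligodendrocyte-like nuclei Cyp51 was at 51.5 and 40.0 CPM in TBI, 49.4 CPM in sham and 108 CPM in naïve, so only the naïve rat stood apart. Whether injury acted differently between these classes was not tested.

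In glutamatergic-like nuclei 5 of 7 members were below 0 with a median of -0.16, and in GABAergic-like nuclei 3 of 7 were below 0 with a median of 0.10. Glutamatergic-like Hmgcs1 was at 22.9 and 5.52 CPM in TBI, 20.5 CPM in sham and 9.74 CPM in naïve, and the 2 lowest rats were those with the highest share of stored zeros. Glutamatergic-like Srebf2 was at 215 and 179 CPM in TBI, 220 CPM in sham and 153 CPM in naïve, with no separation by injury. Precursor-like nuclei had 3 of 6 members on each side of 0, and endothelial-like nuclei had 4 of 5 below 0. In committed precursor-like and pericyte-like nuclei only Srebf2 passed the filter, on 6 to 26 and 6 to 13 UMIs per rat. The other members there rested on 0 to 12 and 0 to 5 UMIs per rat. For Cyp51 both TBI rats were above both controls in precursor-like nuclei, as for 19.5% of all genes tested there. Both TBI rats were below both controls for Cyp51 in glutamatergic-like and in GABAergic-like nuclei, as for 8.08% and 9.01% of all genes.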

How the data were processed

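The members and all gene lists were chosen with earlier results of these data known. For bulk RNA-seq the authors deposited kallisto estimated counts per transcript and log2 CPM per gene, made from polyA libraries and mapped to the rat reference. Rounded gene counts were worked back here from the log2 CPM, and CPM values are the deposited log2 values raised back to a linear scale. Gene names came from a RefSeq table, which matched 13778 of 14166 IDs. Transcript totals were 25121893 to 44649404 per library, and gene totals were 97.8% to 98.5% of them. The gene count of 5 members equalled that of 1 transcript within 0.01. For nuclei the authors deposited UMI counts per gene and nucleus, made with Cell Ranger on Rnor_6.0 with introns included.

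Genes were tested with edgeR 4.0.16 (quasi-likelihood, TMM, Benjamini-Hochberg over all genes, FDR under 0.05) in R 4.3.3. DESeq2 1.42.0 and limma 3.58.1 were alternatives, beside other normalization, filters, a surgery-period covariate, a replicate block and leaving out each library. Nuclei kept at least 500 UMIs, 300 features and 0.8 log10 genes per UMI, and at most 5% mitochondrial and 2% ribosomal counts. Median UMIs per nucleus were 2280, 1647, 1897 and 2652 in TBI 1, TBI 2, sham and naïve. Seurat 5.3.0 integrated and clustered them (25 components, resolution 0.6, 1991 variable features after 9 cholesterol list genes were left out) into 24 clusters. Of these, 6 stayed unnamed, most for want of a clear marker lead. Cluster 9, of 1607 nuclei, had astrocyte markers in the lead but stayed unnamed because mitochondrial genes led it. It is not in the astrocyte-like class, and its pooled Hmgcs1 and Cyp51 were at 95.6 and 81.3 CPM. Clusters 8, 11 and 16, of 1934, 1321 and 776 nuclei, had glutamatergic markers in the lead by too little and are not in the glutamatergic-like class. Their pooled Hmgcs1 was at 34.3, 14.7 and 26.2 CPM and their pooled Fdft1 at 47.1, 14.5 and 48.2 CPM. No doublet caller was run. UMIs were summed per rat and class, with edgeR's filterByExpr. Rats, not nuclei, were replicates. The scripts were tested on simulated data. Pathway genes were to be named where they were among the 6 with the smallest edgeR p, some items are not reported here, and likeness genes are the 5 highest correlations. Intervals for single UMI sums were not computed, and low sums are limited by counting error.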

Additional observations from a re-analysis of the deposited data

Results flagged for a closer look

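Cyp51, the lanosterol demethylase gene, had opposite directions in different cell classes with no overlap between rats. In oligodendrocyte precursor-like nuclei it was at 36.6 and 38.0 CPM in the TBI rats and at 19.7 and 35.9 CPM in the sham and the naïve rat, so both TBI rats were higher. In glutamatergic-like nuclei it was at 24.5 and 15.7 CPM in TBI against 28.0 and 27.0 CPM in control, so both TBI rats were lower. The Log2FC values of these classes differed by 0.92. In GABAergic-like nuclei it was at 37.8 and 41.0 CPM in TBI against 44.9 and 47.8 CPM in control, also lower in both TBI rats, and the Log2FC values differed by 0.70 from the precursor-like class. Neither difference was tested. No Cyp51 value in these classes was called by edgeR, and the precursor-like levels rested on 20 to 38 UMIs per rat. In that class TBI 1 and the naïve rat nearly touched, and only the sham rat stood apart. Both TBI rats were higher for 19.5% of all genes in precursor-like nuclei. Both were lower for 8.08% in glutamatergic-like and 9.01% in GABAergic-like nuclei.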

How the results depend on the processing

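All 91 member values of the 13 bulk alternatives were below 0, from -0.71 to -0.21. The number of members called in bulk was 0 in edgeR, 2 with DESeq2 and 7 with DESeq2 p-values adjusted only over p under 0.05, which by construction keeps every gene at that p. The corresponding counts over all genes were 0, 349 and 1525, and 61 with the replicate number as a block. Same-numbered libraries shared only a number (correlations of deviations 0.352, 0.173 and -0.0297), and with this replicate block 0 members were called, with a median Log2FC of -0.48. Members with a p under 0.05 were 5 in edgeR, 3 with limma, 3 without sham 2 and 2 without TBI 2. No paired analysis was possible in nuclei because TBI and control share fewer than 2 replicate numbers. Leaving out each bulk library in turn gave medians from -0.39 to -0.22 for sterol steps, -0.032 to 0.11 for uptake and 0.10 to 0.35 for efflux, and the uptake median was -0.032 without sham 1 and -0.01 without sham 3. Among marker lists, medians ran from -0.019 (without sham 3) to 0.48 for committed precursors, with -0.00673 without TBI 2. They ran from -0.00748 (without sham 3) to 0.38 for precursors, and from -0.29 to 0.00377 (without TBI 3) for immature neurons, with 0.00299 without sham 2. For nuclei, 3 members were called with no filter on low counts, all in astrocyte-like nuclei, and 0 under the other alternatives run. Over the 4 fits that each lacked 1 rat, the Log2FC in astrocyte-like nuclei ran from -0.53 to 0.30 (without TBI 1) for Idi1 and from -0.32 to 0.13 (without sham) for Srebf2. Over all nuclei it ran from -0.60 to 0.022 (without naïve) for Sqle, from -0.34 to 0.069 (without sham) for Fdft1, from -0.40 (without TBI 2) to 0.35 for Idi1, from -0.21 to 0.025 (without sham) for Dhcr7, with 0.017 without TBI 1, and from -0.18 (without naïve) to 0.29 for Srebf2, with -0.026 without TBI 1. Idi1 over all nuclei was at -0.25 with stored zeros read as 1 UMI, an alternative chosen after seeing the data. The cause of these changes was not tested. With 3 rats a group in bulk and 2 in nuclei, the number of rats limits the precision, and in the rarer classes the UMI sums do so too.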
